A study of Mus musculus with 33 samples.

Results

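The DNA repair genes described here are 41 genes of the 55487 in the count table, taken by symbol from a fixed list, and all 41 were among the 36527 genes with enough reads to be tested. They were sorted by textbook role into 17 genes of homologous recombination and the Fanconi pathway, 16 genes of excision, mismatch and end-joining repair, 7 genes of damage sensing and signalling, and 1 translesion polymerase. RNA was sequenced from mammary epithelial cells of 33 mice, 1 library per mouse, after ribosomal RNA depletion. The cells had been marked green by MMTV-Cre acting on a ROSA mT/mG reporter, kept in culture with serum after digestion of the tissue, and sorted for the green signal. All mice thus carried MMTV-Cre and the reporter. The PyMT, Cre and floxed lines were kept on or backcrossed to FVB, while the strain of the reporter line is not given in the sources used here. Both the recombination and the tumor transgene depended on the MMTV promoter, which is active in mammary epithelium. Tumors came from mice that also carried the MMTV-PyMT transgene (polyoma middle T antigen), and glands from tumor-free mice without it. WT mice were Pthrpwt/wt and KO mice Pthrpflox/flox, so that Cre removed Pthrp (the parathyroid hormone-related peptide gene, Pthlh) in the mammary epithelium of the KO mice only. WT tumors were collected at weeks 6, 8 and 10 (3 mice each) and week 12 (1 mouse), KO tumors at weeks 8, 10 and 12 (3 each), WT glands at weeks 6, 8, 10 and 12 (2 each) and KO glands at weeks 8, 10 and 12 (2 each). The study paired WT week 6 with KO week 8 as hyperplasia, WT week 8 with KO week 10 as adenoma and WT week 10 with KO week 12 as carcinoma.

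Homologous recombination mends double-strand breaks from the sister chromatid, and the Fanconi pathway unhooks crosslinks between the DNA strands. Both work mainly while DNA is being copied, in S and G2 phase, and many of their genes are transcribed in cycling cells. Base excision, nucleotide excision and mismatch repair cut out damaged or mispaired bases, and classical end joining rejoins broken ends without a template. Of these routes, base excision, nucleotide excision and classical end joining are also used by cells that do not divide. Damage is sensed by the kinases ATM and ATR, which signal through CHEK2 and CHEK1. The question put to the data was therefore which of the 41 genes followed proliferation. Proliferation was read from a mitotic score, the mean log2 expression of 30 mitotic genes such as Mki67, Plk1 and Ccnb1, none of them a repair gene of the list, centred over the libraries. The score was measured after the culture, so cycling in culture and in the animal cannot be told apart.

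E2F factors drive many S phase genes, so the promoters of the repair genes were searched for the E2F words TTTCCCGC, TTTCGCGC, TTTGCCGC and TTTGGCGC on both strands. RefSeq promoter windows (250 bases before and 50 after a start site, GRCm38.p6) were at hand for 33 of the 41 genes, and 5 of these held a word (15.2%), against 704 of 27025 genes in the table (2.60%). The words stood in 2 of 13 recombination and Fanconi genes, 2 of 14 excision, mismatch and end-joining genes and 1 of 5 signalling genes. In Msh6 the word lay after the start site. The other four stretches are shown because the genes they belong to fell on either side of the result below, with the E2F word in capitals and 15 bases on each side, read along the gene's strand.
Bard1 (chr1:71103159-71103196, minus strand): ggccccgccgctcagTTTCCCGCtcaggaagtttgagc
Brca2 (chr5:150522438-150522475, plus strand): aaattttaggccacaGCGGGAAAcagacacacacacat
Chek2 (chr5:110839816-110839853, plus strand): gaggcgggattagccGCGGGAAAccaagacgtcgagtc
Xrcc6 (chr15:82016308-82016345, plus strand): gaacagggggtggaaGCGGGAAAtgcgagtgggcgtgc
The first base of the word stood 209, 168, 152 and 46 bases before the start site in Bard1, Brca2, Chek2 and Xrcc6. Another cell cycle word, TTTGAA (the CHR element), was in the windows of 2 of the 33 genes (6.06%) and of 20.2% of all genes in the table. These are matches of letters and not measured binding sites.

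Libraries held between 28419983 and 130981596 reads in genes, and even the rarest repair gene was counted at 14 reads or more in every library. Pthlh, the targeted gene, had a median of 1.64 CPM (counts scaled to the size of the library) in KO tumors and 2.65 in WT tumors, and 3.49 in KO glands and 5.79 in WT glands, with overlapping ranges. Its highest value was 8.52 CPM in the KO gland of week 12 replicate 2, beside at most 7.72 CPM in WT glands. The counts cover the whole gene, so they do not show whether a removed exon was read. The study itself reported that its KO samples had no reads at the floxed exon. Ribosomal RNA made up over 5% of the reads in 4 libraries, the KO glands of week 8 replicate 2 (15.7%), week 10 replicate 1 (8.04%) and week 12 replicate 2 (18.8%), and the KO tumor of week 8 replicate 2 (12.0%). The summed level of 10 luminal markers had a median of 9574 CPM in WT tumors and 9236 CPM in WT glands, whereas that of 10 basal markers was 2547 CPM in WT tumors and 9801 CPM in WT glands, and 2513 CPM in KO tumors and 10692 CPM in KO glands. All 10 basal markers were called lower in tumors on the average of the comparisons below, and the part of this difference in cell makeup in any tumor to gland value was not tested. Fibroblast markers summed to between 12.6 and 764 CPM, highest in the WT gland of week 8 replicate 2, and 9 of 10 adipocyte, 8 of 10 endothelial and 7 of 10 macrophage and lymphocyte markers had medians under 1 CPM in both tissues. The summed macrophage and lymphocyte markers were nonetheless higher in tumors, with medians of 241 CPM in WT tumors and 79.1 in WT glands and of 216 CPM in KO tumors and 106 in KO glands. The summed endothelial markers were lower, with medians of 8.72 against 36.0 CPM in WT and 7.73 against 21.6 CPM in KO mice, and the part of either list in a tumor to gland value was not tested. In sorted bulk cells, more cycling cells and more transcript per cycling cell cannot be told apart.

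Of the 41 repair genes most followed the mitotic score, and the 17 recombination and Fanconi genes had the highest median slope of the 3 classes with several genes. The difference between classes was not tested, and in wider lists of the same pathways, without the 41, the median slope was 0.08 for recombination and Fanconi genes and 0.14 for signalling and translesion genes. Within the 14 conditions, 29 of the 41 genes had a positive slope on the score that passed the test (edgeR's quasi-likelihood test, adjusted p under 0.1) and none had a negative one. In comparison, 5.42% of all tested genes had a called positive slope and 5.82% a called negative one. Among the 11648 genes expressed at or above the lowest repair gene (2.80 CPM on average) the share with a called positive slope was 15.4%. The slope was called in 16 of the 17 recombination and Fanconi genes, with a median of 0.63 log2 units per unit of score, and in 7 of the 16 excision, mismatch and end-joining genes, with a median of 0.11. It was called in 5 of the 7 signalling genes (median 0.15) and in the polymerase Polh (0.32). The median slope of all tested genes was −0.11 and that of the 11648 expressed genes 0.02. Of the fibroblast markers 3 of 10 had a called negative slope and none a positive one (median −0.84), while none of the 10 basal markers was called (median −0.03). Their part in the slopes of the repair genes was not tested.

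**Figure D1:**
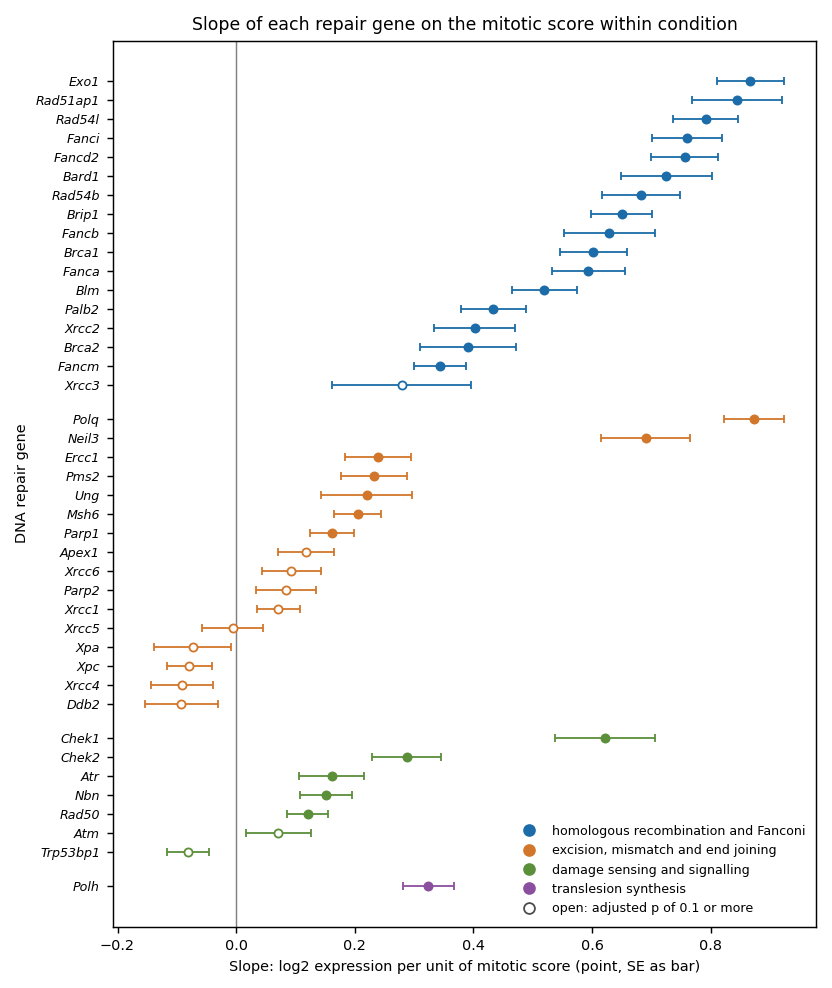
Slope of each of the 41 repair genes on the mitotic score within condition (x axis, log2 expression per unit of score), grouped by role, with the standard error as a bar and open points where the adjusted p was 0.1 or more. Recombination and Fanconi genes lie between 0.28 and 0.87, and most of the other genes lie below 0.35 except Polq (0.87), Neil3 (0.69) and Chek1 (0.62).

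Tumors and glands were also fitted apart. In the 19 tumors alone, 28 of the 41 slopes were called (6.21% of all genes had a called positive slope), and in the 14 glands alone 21 were called (1.61% of all genes). In tumors 15 of 17 recombination and Fanconi genes, 8 of 16 excision, mismatch and end-joining genes and 4 of 7 signalling genes were called, and in glands 15, 3 and 2. Both fits called 14 of the 17, 3 of the 16 (Polq, Neil3 and Msh6) and 1 of the 7 (Chek1). With a score of 25 S phase genes in place of the mitotic score, 33 slopes were called positive, against 7.31% of all genes, including all 17 recombination and Fanconi genes, and Xpc was called negative (−0.18, adjusted p = 0.062).

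Exo1, the exonuclease that resects broken ends, had the steepest slope of the recombination and Fanconi genes. It lay between 7.09 and 31.4 CPM in WT tumors (median 19.6), between 11.5 and 30.0 in KO tumors (median 16.9), between 4.11 and 22.4 in WT glands (median 8.83) and between 6.74 and 50.8 in KO glands (median 20.7). The 4 ranges overlapped, and the lowest and the highest values were both found in glands. Its slope was 0.87 ± 0.06 (SE, adjusted p = 2.2e-11), a 1.82-fold rise per unit of score. Rad51ap1, which promotes strand exchange, had a slope of 0.84 ± 0.08 and ranged from 2.72 to 22.4 CPM over the libraries. Rad54l, a DNA translocase of homologous recombination, had a slope of 0.79 ± 0.05 and ranged from 3.66 to 30.0 CPM. Its relative Rad54b had a slope of 0.68 ± 0.07, with 35.8% of its exon bases shared with Fsbp on the same strand. Each of these genes was lowest in a WT gland with a low mitotic score and highest in the KO gland of week 12 replicate 2, the library with the highest score (1.41). That library gave the highest value of 30 of the 41 genes and the lowest of 2 (Xpa and Xpc), and it also had the largest share of ribosomal RNA (18.8%). Without it, 27 of the 41 slopes were called.

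**Figure D2:**
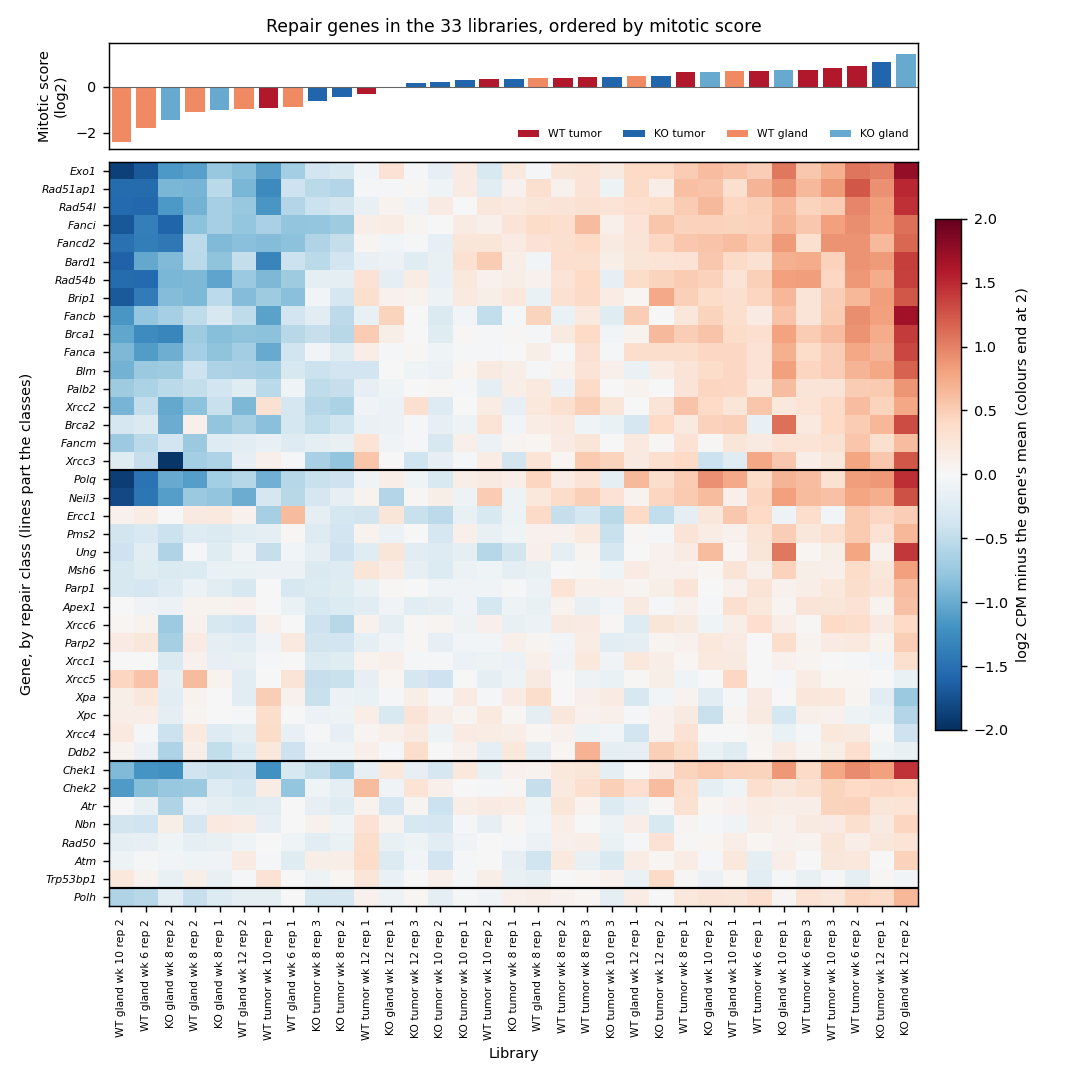
Repair genes (rows, grouped by role and ordered by slope) in the 33 libraries (columns, ordered by mitotic score, which the bars on top show in log2 units). Colour gives log2 CPM minus the mean of the gene, and the upper block of recombination and Fanconi genes passes from blue to red along the score while most rows of the blocks below stay pale.

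The slope was called in all 5 genes of the 41 with a Fanc symbol, against 15.4% of the expressed genes. Fancd2 and Fanci, which form the complex that is ubiquitinated at a crosslink, had like slopes of 0.76 ± 0.06 each, with adjusted p = 2.8e-10 and 6.0e-10. Fancd2 lay between 5.47 and 18.8 CPM in WT tumors (median 12.8) and between 3.55 and 15.4 in WT glands (median 6.33), and between 6.61 and 15.7 in KO tumors (median 11.3) and between 3.71 and 22.3 in KO glands. Fancb and Fanca, subunits of the ubiquitin ligase core, had slopes of 0.63 ± 0.08 and 0.59 ± 0.06, and the translocase Fancm 0.34 ± 0.04. Of the tumor suppressors of homologous recombination, Brca1 (0.60 ± 0.06) and its partner Bard1 (0.72 ± 0.08) had steeper slopes than Palb2 (0.43 ± 0.05) and Brca2 (0.39 ± 0.08), although the differences between genes were not tested. Brca2 was called in tumors (0.71, adjusted p = 2.1e-04) but not in glands (0.30, adjusted p = 0.17), and that difference was not tested either. The helicases Brip1 (0.65 ± 0.05) and Blm (0.52 ± 0.05) stood in between. Of the recombination genes Xrcc2 and Xrcc3, Xrcc2 was called (0.40 ± 0.07) and Xrcc3 was not (0.28 ± 0.12, adjusted p = 0.15). Xrcc3 ranged from 0.674 CPM in the KO gland of week 8 replicate 2 to 6.16 CPM in the KO gland of week 12 replicate 2.

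The excision, mismatch and end-joining genes were split. A pair of them, Polq and Neil3, sloped like the recombination genes. Polq, the polymerase of theta-mediated end joining, an error-prone route that uses resected ends, had a slope of 0.87 ± 0.05 (adjusted p = 1.4e-12). It lay between 7.07 and 24.6 CPM in WT tumors (median 16.8), between 10.1 and 25.1 in KO tumors (median 12.9), between 3.71 and 23.2 in WT glands (median 9.22) and between 6.83 and 38.3 in KO glands (median 18.5). As for Exo1, both ends of the range were in glands. Neil3, a glycosylase that also acts on crosslinks, had a slope of 0.69 ± 0.08 and was the least abundant of the 41 per length, with a median of 0.74 RPKM (CPM divided by the exon length in kilobases) in tumors and 0.39 in glands.

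The other called genes of this class had slopes of a smaller size. They were Ercc1 (0.24 ± 0.06), a nuclease subunit of nucleotide excision and crosslink repair, the mismatch genes Pms2 (0.23 ± 0.06) and Msh6 (0.20 ± 0.04), the uracil glycosylase Ung (0.22 ± 0.08) and the strand-break sensor Parp1 (0.16 ± 0.04). The Ung slope was called in 18 of the 33 fits that left out 1 library. The slopes of the base excision genes Apex1 (0.12), Parp2 (0.08) and Xrcc1 (0.07) and of Xrcc6 (0.09), the Ku70 subunit of classical end joining, did not pass the test. Apex1 was the most abundant per length (49.9 RPKM in tumors), but 61.7% of its exon bases overlap Pip4p1 on the opposite strand and whether reads were counted by strand is not given in the sources used here.

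The lowest slopes belonged to Ddb2 (−0.09 ± 0.06), Xrcc4 (−0.09 ± 0.05), Trp53bp1 (−0.08 ± 0.04), Xpc (−0.08 ± 0.04), Xpa (−0.07 ± 0.06) and Xrcc5 (−0.01 ± 0.05), none of them called (adjusted p between 0.17 and 0.97). Ddb2, Xpc and Xpa recognise or verify damage in nucleotide excision, Xrcc4 and Xrcc5 (Ku80) belong to classical end joining, and Trp53bp1 steers breaks towards end joining. Xpc lay between 40.5 and 55.3 CPM in WT tumors (median 48.5), between 39.9 and 51.7 in KO tumors (median 45.0), between 38.5 and 47.9 in WT glands (median 44.0) and between 28.9 and 43.5 in KO glands (median 34.6). Trp53bp1 was the steadiest of these, from 71.4 to 108 CPM over all 33 libraries, a 1.52-fold span. By comparison Exo1 spanned 12.4-fold. Xpa ranged from 5.32 to 12.5 CPM, Xrcc4 from 6.50 to 11.3 CPM, Ddb2 from 8.52 to 21.2 CPM and Xrcc5 from 28.9 to 61.7 CPM. The median span from the lowest to the highest library was 6.94-fold for the recombination and Fanconi genes and 2.20-fold for the excision, mismatch and end-joining genes.

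**Figure D3:**
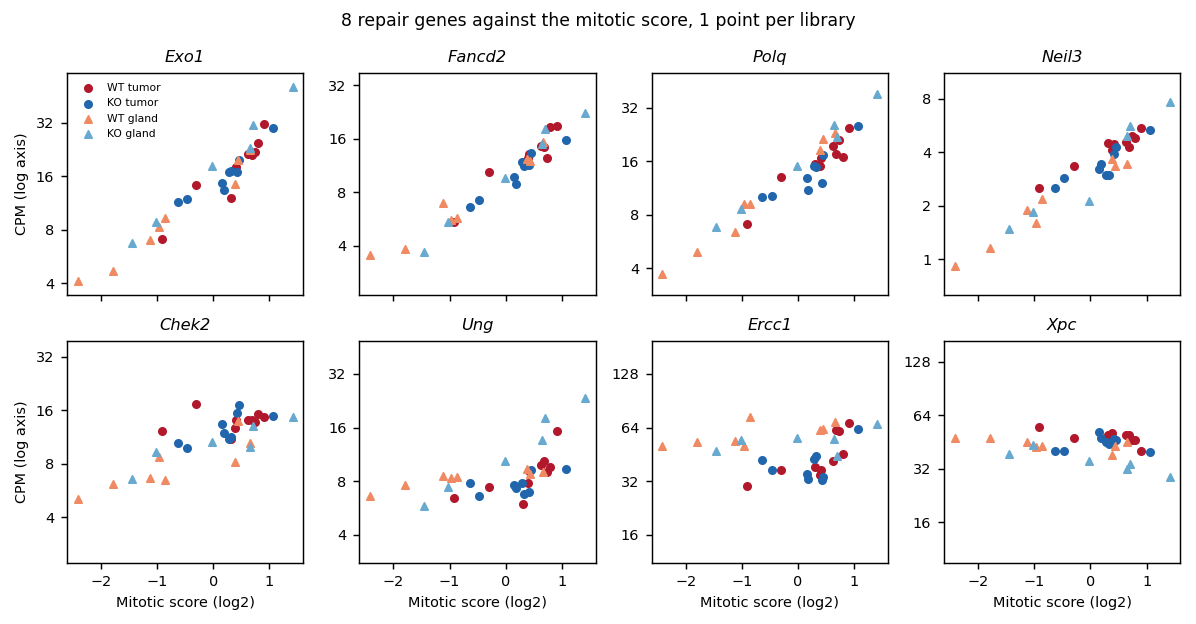
CPM of 8 repair genes (y axis, log scale, each panel covering the same fold range) against the mitotic score (x axis, log2) with 1 point per library, circles for tumors and triangles for glands. Exo1, Fancd2, Polq and Neil3 climb along the score in tumors and glands alike, Chek2 is low mainly in glands, Ercc1 is lower in most tumors, and Xpc stays between 28.9 and 55.3 CPM.

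Among the signalling genes Chek1 was the steepest. Chek1, the kinase activated by ATR when replication stalls, had a slope of 0.62 ± 0.08 (adjusted p = 1.7e-05) and lay between 5.10 and 32.3 CPM. Chek2, the kinase downstream of ATM, had a slope of 0.29 ± 0.06, which was not called within tumors alone (0.20, adjusted p = 0.29) and was called within glands (0.34, adjusted p = 0.053). The sensor kinase Atr (0.16 ± 0.05) and the break-end complex genes Nbn (0.15 ± 0.04) and Rad50 (0.12 ± 0.03) had called slopes of small size. That of Atr was called in 25 of the 33 fits that left out 1 library and lay between 0.13 and 0.26 in them, while those of Nbn and Rad50 were called in all 33. Atm (0.07 ± 0.06) and Trp53bp1 were not called. Among the 4 genes with E2F words shown above, the slope was called in Bard1, Brca2 and Chek2 and not in Xrcc6.

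Between tumors and glands of the same genotype and week, the median of the recombination and Fanconi genes had the sign of the difference in mitotic score in all 6 comparisons. In WT mice at week 6, where the tumors scored between 0.68 and 0.91 and the glands −0.86 and −1.80, 11 of the 41 genes were called higher in tumors (fold over 1.5 and adjusted p under 0.1) and none lower. The share called in either direction was 5.86% of all tested genes and 11.6% of the 11648 expressed ones, with a median difference of 0.00 and 0.03. The 11 genes were Exo1, Rad54b, Rad51ap1, Fanci, Fancd2, Rad54l, Brip1 and Brca1 of the recombination and Fanconi class, the excision genes Neil3 and Parp1, and Chek2. All 17 recombination and Fanconi genes were higher in each of the 3 tumors than in both glands, with a median difference of 1.36 on the log2 scale. Of all tested genes 13.9% lay above both glands in every tumor and 17.4% below, and of the expressed genes 27.6% and 24.5%. The excision, mismatch and end-joining genes had a median of 0.28, with 9 of 16 above and 2 below both glands.

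Exo1 had 9.34 and 4.68 CPM in the WT glands of week 6 and 21.1, 31.4 and 21.8 CPM in the tumors, a difference of 1.82 ± 0.57 (log2 ± SE, adjusted p = 0.073). Rad54b had 3.98 and 2.22 CPM in these glands and 9.08, 11.9 and 11.7 CPM in the tumors (1.81 ± 0.47, adjusted p = 0.027). Rad51ap1 had 5.93 and 2.72 against 12.7, 18.7 and 12.4 CPM (1.76 ± 0.58, adjusted p = 0.088). Every tumor was above both glands in these genes. Fanci had 5.63 and 3.77 CPM in the glands and 13.4, 18.6 and 14.1 CPM in the tumors (1.71 ± 0.51, adjusted p = 0.057). Fancd2 had 5.70 and 3.86 against 14.5, 18.8 and 12.5 CPM (1.67 ± 0.50, adjusted p = 0.058), and Rad54l 7.24 and 3.66 against 15.2, 21.6 and 14.9 CPM (1.66 ± 0.52, adjusted p = 0.072). Gland replicate 2, with the lower score of the pair, was the lower gland for all 6 of these genes. Leaving out this gland left no gene called, leaving out tumor replicate 2 left 2, tumor replicate 1 left 5 and gland replicate 1 left 6. Other settings of the test called between 10 and 21. The median of the recombination and Fanconi genes was still 1.09 without that gland. Basal markers summed to 9271 and 11705 CPM in these glands and to between 3060 and 3694 CPM in the tumors.

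**Figure D4:**
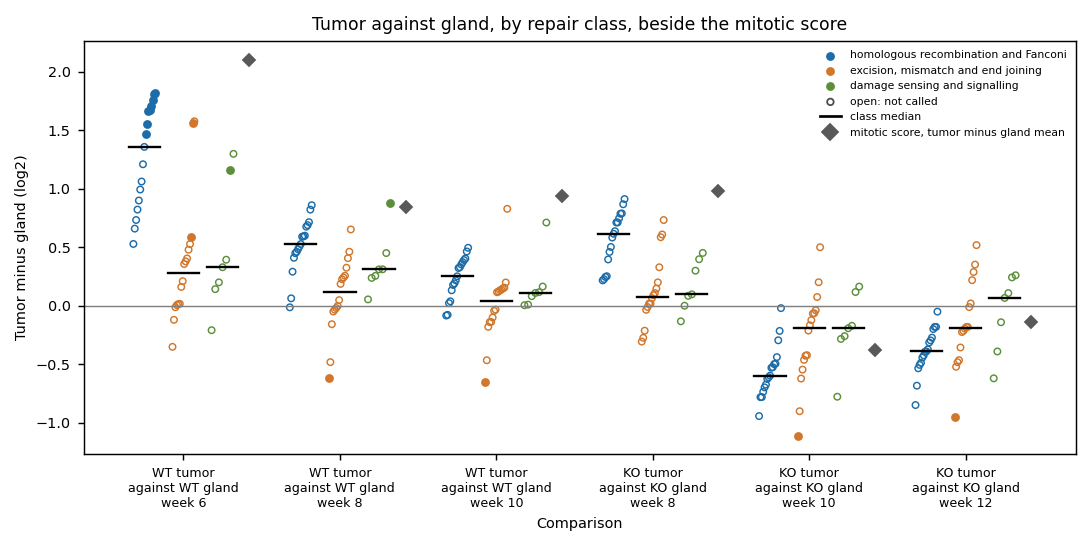
Tumor minus gland difference (y axis, log2) of the repair genes in the 6 comparisons of the same genotype and week, with filled points for called genes, black lines for class medians and diamonds for the difference in mean mitotic score. The recombination and Fanconi median is 1.36 in WT mice at week 6, where the score differs by 2.11, and −0.60 in KO mice at week 10, where it differs by −0.38.

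The later WT weeks had smaller medians of the recombination and Fanconi genes, and the difference between weeks was not tested. At week 8 the score differed by 0.84, the recombination and Fanconi genes had a median of 0.53, and 10 of 17 were above both glands in every tumor (32.0% of the expressed genes were), but none was called. The median was 0.13 without gland replicate 2, the library with the most fibroblast markers, and 1.02 without gland replicate 1. Chek2 was called higher and Ercc1 lower, 2 of 41 genes against 9.19% of all genes. The Chek2 call was lost without gland replicate 2 and the Ercc1 call without any 1 of the 5 libraries. At week 10 only Ercc1 was called, lower, against 6.13% of all genes, and this call was lost without gland replicate 1, tumor replicate 1 or tumor replicate 2. The WT glands of week 10 scored 0.66 and −2.42, and the median of the recombination and Fanconi genes was 0.25 with both glands, 1.21 without replicate 1 and −0.32 without replicate 2. It was 0.48 without tumor replicate 1 and −0.09 without tumor replicate 3, so the direction at week 10 rested on single libraries.

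In KO mice the sign of the median differed between the weeks. At week 8 the KO tumors scored between −0.64 and 0.32 and the glands −1.02 and −1.45. The recombination and Fanconi median was 0.61 and 11 of 17 were above both glands in all tumors (21.5% of the expressed genes were). The median was 0.38 without tumor replicate 1. No repair gene was called, against 2.49% of all genes, with 1 of 41 at an unadjusted p under 0.05 (10.6% of all genes). At week 10 the KO glands scored 0.70 and 0.65, above the tumors (0.18 to 0.42). The median was then −0.60, with 14 of 17 recombination and Fanconi genes below both glands in every tumor (21.7% of the expressed genes were), and Ung was the single gene called (5.66% of all genes were called). Ribosomal RNA was 8.04% and 4.35% in these glands and 0.0045%, 2.51% and 2.06% in the tumors, and its part in the difference was not tested. When only the groups compared were fitted, 11 repair genes were called at week 10. None was called there without the 4 libraries of over 5% ribosomal RNA. At week 12 the glands scored −0.02 and 1.41. The median was −0.39, and it was 0.42 when the gland of replicate 2 was left out, so this direction too rested on 1 gland. It was −0.89 without gland replicate 1 and −0.21 without tumor replicate 3. Ung was called lower again, 1 of 41 against 6.11% of all genes.

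Ung, which removes uracil from DNA, had 18.2 and 13.6 CPM in the KO glands of week 10 and 7.78, 7.32 and 6.95 CPM in the tumors (−1.11 ± 0.26, adjusted p = 0.013). At week 12 it had 10.4 and 23.5 CPM in the KO glands and 9.33, 9.29 and 7.62 CPM in the tumors (−0.95 ± 0.26, adjusted p = 0.034). All tumors were below both glands at both weeks, and the call was lost at week 10 without gland replicate 1 (8.04% ribosomal RNA), where the difference was −0.89. At week 12 it was lost without gland replicate 2 (18.8%), with a difference of −0.20, and without tumor replicate 3 (0.0033%), with −0.86. The other comparisons did not pass the test, with 0.53 ± 0.27 (adjusted p = 0.36) in WT mice at week 6, 0.00 ± 0.27 at week 8 and −0.10 ± 0.27 at week 10, and 0.09 ± 0.27 in KO mice at week 8.

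Averaged over the 6 comparisons, the difference that the recombination and Fanconi genes showed at week 6 was small (median 0.32, none of 17 called). Of the 41 repair genes only Chek2 was called, beside 14.9% of all genes, and between 0 and 8 were called with 1 library left out. Chek2 was higher in tumors by 0.59 ± 0.10 (adjusted p = 6.4e-05), a size close to the fold threshold. With DESeq2 it fell just under that threshold at 0.58 (adjusted p = 1.1e-07). It also fell under that threshold, to between 0.52 and 0.58, without any 1 of 8 libraries (WT gland replicate 2 of week 8 or 10, WT tumor replicate 3 of week 10, KO gland replicate 2 of week 8 or 10, KO gland replicate 1 of week 12, KO tumor replicate 3 of week 10 and KO tumor replicate 2 of week 12). It had 6.52 and 6.18 CPM in the WT glands of week 6 and 14.0, 14.7 and 13.8 CPM in the tumors, and all tumors were above both glands in each of the 3 WT weeks and in KO mice at week 8, while the groups overlapped in KO mice at weeks 10 and 12. At an unadjusted p under 0.05 were 15 of the 41 genes (36.6%), near the 30.5% of all genes. Another 4 genes had an adjusted p under 0.01 with a difference under the fold threshold. Ercc1 was lower by 0.42 ± 0.09 (adjusted p = 8.6e-04) and Xrcc5 lower by 0.29 ± 0.06 (adjusted p = 0.0010), whereas Xpc was higher by 0.23 ± 0.05 (adjusted p = 0.0014) and Ddb2 higher by 0.30 ± 0.08 (adjusted p = 0.0066). Brip1, Neil3, Rad54b and Xrcc2 were higher and Ung was lower at adjusted p between 0.047 and 0.096.

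Ercc1 had 62.2 and 53.7 CPM in the WT glands of week 8 and 41.6, 34.5 and 37.0 CPM in the tumors (−0.62 ± 0.22, adjusted p = 0.093), and 68.7 and 50.4 against 29.9, 38.3 and 45.6 CPM at week 10 (−0.65 ± 0.22, adjusted p = 0.097). All tumors were below both glands in 4 of the 6 comparisons, and the exceptions were WT week 6 (62.3, 68.0 and 60.9 against 73.3 and 52.8 CPM) and KO week 12, where the tumor of replicate 1 had 63.1 CPM. Xrcc5 was below both glands in all tumors at the 3 WT weeks, with 47.8 and 59.0 CPM in the glands and 40.3, 40.9 and 44.3 CPM in the tumors of week 6, and overlapped at the 3 KO weeks.

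With the mitotic score in the fit, the tumor to gland difference at equal score was called in Ercc1 alone (−0.59 ± 0.08, adjusted p = 2.2e-06), against 15.7% of all genes, for which the median moved to 0.17 (0.00 in the expressed genes). Chek2 was under the fold threshold in that fit (0.41 ± 0.08, adjusted p = 5.0e-04). Xpc (0.29 ± 0.05) and Ddb2 (0.37 ± 0.09) stayed higher and Xrcc5 (−0.29 ± 0.07) lower in tumors at adjusted p under 0.1. Polq (−0.31 ± 0.07, adjusted p = 0.0012) and Fancb (−0.44 ± 0.11, adjusted p = 0.0028) were then lower in tumors. The median of the recombination and Fanconi genes was −0.13 with the mitotic score and 0.29 with the S phase score, so its sign depended on the score used, and under the S phase score no repair gene was called. With the mitotic score it was −0.06 without WT tumor replicate 1 of week 10, −0.07 without KO gland replicate 2 of week 12 and −0.23 without WT gland replicate 1 of week 10.

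**Figure D5:**
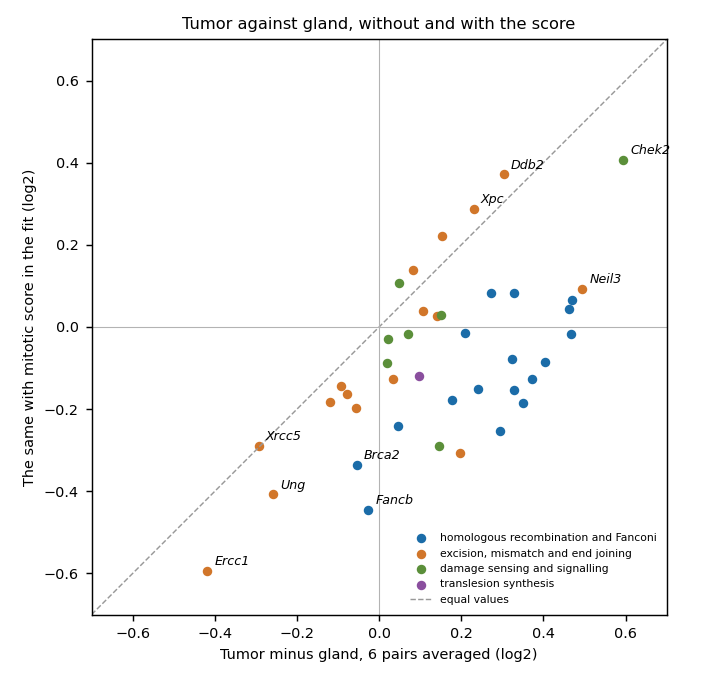
Tumor minus gland difference averaged over the 6 comparisons (x axis, log2) against the same difference with the mitotic score in the fit (y axis, log2), 1 point per repair gene, with the line of equal values dashed. Recombination and Fanconi genes lie below the line, at a median of 0.32 without and −0.13 with the score, while Xpc, Ddb2 and Xrcc5 lie near it and Ercc1 is the lowest on both axes.

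WT and KO mice were compared in tumors of the same stage, in tumors and glands of the same age, and as the difference between the tumor effects. Tumors of the same stage came from older KO than WT mice, so genotype and age cannot be told apart there. The same holds for the tumor effects of WT week 6 and KO week 8. At hyperplasia the WT tumors scored higher than the KO tumors (0.68 to 0.91 against −0.64 to 0.32) and the repair genes had a median of 0.57 higher in WT, against −0.08 over all genes and 0.03 over the expressed ones. At an unadjusted p under 0.05 were 18 of 41 repair genes (43.9%) and 14.2% of all genes. Xrcc6 was called, 1 of 41 against 1.53% of all genes. It had 35.5, 36.2 and 28.7 CPM in WT and 25.5, 19.3 and 21.1 CPM in KO tumors, a difference of 0.61 ± 0.15 (adjusted p = 0.063) without overlap. Ribosomal RNA was 0.0638%, 0.0072% and 0.144% in these WT tumors and 0.0057%, 12.0% and 3.62% in the KO tumors, and the lowest value of Xrcc6 was that of the KO tumor with 12.0%. The call was lost with the ribosomal RNA share in the fit (0.59, adjusted p = 0.15) and without the 4 libraries of over 5% (0.54, adjusted p = 0.38). It was also lost when any of 5 of the 6 tumors was left out, and 6 repair genes were called without the KO tumor of replicate 1, the KO tumor with the highest score of its group (0.32). More repair genes than 1 were also called with DESeq2 (8), with no filter on low counts (6) and with the replicate block (4). No repair gene was called between the genotypes at adenoma or carcinoma, where 3 and 7 genes were called in all, and 2 and 0 of the 41 had an unadjusted p under 0.05 beside 4.48% and 6.53% of all genes. None was called over the tumors of weeks 8 and 10 either, with 187 genes called in all and 8 of 41 (19.5%) at an unadjusted p under 0.05 beside 10.9% of all genes. Over the glands of weeks 8, 10 and 12 none was called, against 0.906% of all genes, and 6 of 41 (14.6%) had an unadjusted p under 0.05 beside 12.4% of all genes. The tumor effect did not differ by the test between WT week 6 and KO week 8 (4 of 41 at an unadjusted p under 0.05, beside 5.97% of all genes) or between the genotypes at weeks 8 and 10 (3 of 41, beside 5.58%), where the fit called 0 and 2 genes in all. WT tumors of week 10 against week 6 and KO tumors of week 12 against week 8 had no called repair gene, with 4 and 0 genes called in all. At an unadjusted p under 0.05 were 3 and 9 of the 41, beside 8.55% and 7.88% of all genes. The recombination and Fanconi genes had a median of −0.44 in the former and of 0.62 in the latter. Without 1 library the former was −0.24 (WT tumor of week 10 replicate 1) or −0.82 (replicate 3), and the latter 0.37 (KO tumor of week 12 replicate 1). Beside these medians, the mean score was 0.78 in WT tumors of week 6 and 0.06 in those of week 10, and −0.26 in KO tumors of week 8 and 0.56 in those of week 12.

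Repair genes outside the 41 were read from fuller lists of the same pathways. Of 37 other recombination and Fanconi genes, 13 had a called positive slope (35.1%, against 15.4% of the expressed genes) and none a negative one, with a median of 0.08 beside 0.63 for the 17 genes described above. Eme1 (0.85 ± 0.06) and Gen1 (0.70 ± 0.06), nuclease genes that resolve joint molecules, were also called higher in WT tumors of week 6, by 1.67 and 1.66. Fancc, a core complex subunit, was called higher in tumors in 4 of the 6 comparisons, by 0.71 to 0.80, with a slope of 0.06 that did not pass the test. Fancl, the ligase subunit, was called in 2. Of 39 other excision, mismatch and end-joining genes, 8 had a positive and 1 a negative called slope (median 0.05), and the positive share of 20.5% was near the 15.4% of the expressed genes. The replication-linked genes Fen1 (0.46 ± 0.05) and Lig1 (0.43 ± 0.06) and the glycosylase Mbd4 (0.28 ± 0.05) were among them and were called higher at WT week 6, by 1.18, 1.11 and 0.76, while Ercc2, a helicase of nucleotide excision, was called higher at WT week 8 by 0.59 with a slope of −0.09 that did not pass. Of 20 other signalling and translesion genes, 8 had a called positive slope (40.0%, median 0.14). Clspn, the adaptor between ATR and CHEK1, had the steepest of these (0.91 ± 0.06) and was higher by 2.04 at WT week 6, and Rad9a was called lower at KO week 10 by −0.62.

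The p53 targets, a readout of damage signalling, were mixed in direction. Of 18 targets, 5 had a positive (27.8%, against 15.4% of the expressed genes) and 1 a negative called slope (median 0.16). Fas, a death receptor gene, was called higher in tumors in 5 of the 6 comparisons, by 1.02 to 1.84, and Bbc3, which codes for the apoptosis inducer PUMA, in 3, by 0.60 to 0.85. Phlda3, an inhibitor of AKT, was called lower in 4, by −0.79 to −1.37, and Trp53inp1 was called higher at KO week 12 by 1.19. None of these 4 had a called slope. The mean difference over the 6 comparisons called 1 of the 18 higher and 3 lower, beside 14.9% of all genes called either way.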

How the data were processed

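The authors depleted ribosomal RNA from total RNA, made stranded libraries, aligned reads with HISAT to GRCm38, removed duplicate reads with Picard 1.128 and counted reads per Gencode M16 gene with HTSeq. These raw counts, as deposited, cover 33 libraries, and whether they were counted by strand is not given in the sources used here. The deposited normalized table holds a signal, the counts divided by a size factor per library, from which whole reads were recovered for 100% of values (tolerance 0.01 reads). The raw counts were used, and 111 rows that name no gene (0.0778% of reads) were left out. Genes with at least 10 reads in all were tested (36527). All libraries were fitted together in edgeR 4.0.16 (R 4.3.3) with TMM scaling, 1 coefficient per condition and the quasi-likelihood test, with Benjamini-Hochberg adjustment. A gene was called at a fold over 1.5 and adjusted p under 0.1, and a slope on the mitotic score at adjusted p under 0.1. DESeq2 1.42.0 was an alternative. The score is the mean log2 CPM (prior count 2) of 30 genes. The test was run on counts simulated gene by gene with a fixed spread, which checks its code but not its calls in these libraries. The repair genes and all lists were chosen with earlier results of these data known. Genes named with values for each library are the 6 with the largest called difference at WT week 6 or KO week 8, the 6 highest and 6 lowest slopes, and genes called between genotypes or lower in tumors, and from other lists up to 4 genes called in the most comparisons. Further genes were named after their values were seen. Replicates are separate mice. Of 21 pairs of samples with the same replicate number, 4 had deviations correlated over 0.1, so the numbers were not taken as pairs. In the 25 pairs of libraries of 1 condition the counts differed by more than counting noise (chi-square per degree of freedom 37.4 or more). Gene positions and exon overlaps come from Gencode M21 (GRCm38). The values of a further gene of the wider lists are not reported here.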

Additional observations from a re-analysis of the deposited data

Results flagged for a closer look

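Of 164 groups tested (41 genes in the WT tumors, KO tumors, WT glands and KO glands, over all weeks), 17 held a library that lay far from the rest of its group on the log2 scale. Chance gives about 1 in 20 in independent groups. These groups are not independent, since the 41 genes were read in the same libraries, so the count cannot be set against that share. The WT tumor of week 10 replicate 1, which has the lowest mitotic score of the tumors (−0.92) and also the most fibroblast markers of the tumors (143 CPM, next highest 72.1) and the fewest luminal markers of all libraries (5037 CPM), was the low one for 10 genes, with 9.06 CPM of Brca2 (next lowest 14.6), 4.72 of Bard1 (10.6), 4.88 of Rad54l (9.84), 3.51 of Rad54b (6.95), 8.35 of Brip1 (14.9), 8.87 of Fanca (17.6), 5.47 of Fancd2 (10.4), 6.18 of Fanci (10.5) and 7.07 of Polq (13.1), and for Chek1 with 5.13 (10.5). The KO tumor of week 12 replicate 1, with the highest score of the tumors (1.07), was the high one for Rad51ap1 at 14.9 CPM (next highest 8.89), Blm at 34.3 (22.4), Fancb at 9.77 (5.55) and Ercc1 at 63.1 (44.2). The KO gland of week 12 replicate 2 was high for Apex1 at 111 CPM (77.9) and low for Xpa at 5.32 (7.65), and the KO tumor of week 12 replicate 2 was high for Trp53bp1 at 108 CPM (89.4). Without the first library 27 of the 41 slopes were called, without the second 27 and without the third 27. The groups span several weeks, and the part of age, depth, cell makeup or ribosomal RNA in these values was not tested. No repair gene had a tumor effect that differed between the genotypes by the test.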

How the results depend on the processing

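Of the called differences between groups, 149 values under another setting kept their call and 20 lost it, and 77 kept and 69 lost it when 1 library was left out. Of the slopes, 422 values kept their side of the threshold under another setting, 16 lost and 13 gained a call, and with 1 library left out 1325 kept, 23 lost and 5 gained it. No called value changed sign. At WT week 6 the count of called repair genes was 18 with DESeq2, 19 with no filter on low counts, 17 with filterByExpr and 21 when only the groups compared were fitted, in place of 11, and between 0 and 9 with 1 library left out. At WT week 8 it was 1 with the ribosomal RNA share as a covariate, 1 without the 4 libraries over 5% ribosomal RNA (chosen after seeing the data) and 6 with only the groups compared, in place of 2, and 0 to 4 with 1 library left out. At WT week 10 it was 2 with DESeq2, its size factors or filterByExpr, and 0 with the covariate, the replicate block, the 4 libraries left out or only the groups compared, in place of 1 (0 to 3 with 1 library left out). At KO week 8 it was 4 with only the groups compared, in place of 0. At KO week 10 it was 2 with DESeq2, no filter or filterByExpr, 0 without the 4 libraries and 11 with only the groups compared, in place of 1 (0 to 2). At KO week 12 it was 0 without the 4 libraries and with only the groups compared (0 to 4), and without the 4 libraries the median of the recombination and Fanconi genes was 0.40 in place of −0.39. Between genotypes at hyperplasia it was 8 with DESeq2, 6 with no filter or filterByExpr, 4 with the replicate block, and 0 with the covariate or without the 4 libraries, in place of 1 (0 to 6). For WT week 10 against week 6 it was 1 with DESeq2 or no filter (0 to 1), for KO week 12 against week 8 it was 0 to 1 and for the glands of both genotypes 0 to 2 with 1 library left out. The average over the 6 comparisons called 0 with DESeq2, its size factors or the replicate block and 4 without the 4 libraries, in place of 1 (0 to 8), and with the mitotic score 0 under the replicate block or the S phase score (0 to 2). The replicate numbers share only a number (correlations of −0.73 to 0.52 over 21 pairs), and a call lost under the block is not read as a smaller effect. Each gland group held 2 libraries and each library at least 28419983 reads, and whether depth or sample number limits the calls was not tested. The cause of these changes was not tested.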
